A study of Caenorhabditis elegans with 12 samples.

Results

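The vitellogenin family of C. elegans, vit-1 to vit-6, encodes the yolk proteins. All 6 genes were found in the deposited table of read counts by their WormBase identifiers, as 6 of 46726 listed genes. Libraries were prepared from sorted cells of late larvae (L3 and L4), which were grown from L1 arrest for 36 to 42 h at 20 °C in liquid culture with E. coli HB101. The series asks how the amphid sheath (AMsh) glia of the head react when the cilia of the neurons they wrap are lost. Every animal, control or mutant, carried dsRed driven by the F16F9.3 promoter, which marks AMsh glia. The wild type background was strain OS4079, and the cilia mutant che-2(e1033), which lacks a component of intraflagellar transport, was strain OS11549. Each culture pooled a large population of larvae that was dissociated together and sorted into dsRed-positive cells (AMsh) and all other cells (non-AMsh). The 4 groups of 3 libraries are wild type AMsh, che-2 AMsh, wild type non-AMsh and che-2 non-AMsh, and each holds 1 library with each of the codes E30, E35 and E36.

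Yolk proteins are large lipid-binding proteins of the apolipoprotein B family. In C. elegans they are made in the intestine of adult hermaphrodites, secreted into the body cavity and taken up by growing oocytes through the receptor RME-2. Transcription of the vit genes starts around the change from the last larval stage to the adult, requires the intestinal GATA factor ELT-2 and is repressed in males by MAB-3. Vitellogenin transcripts are therefore widely used as a sign that hermaphrodites have reached adulthood.

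On the WBcel235 build, 5 of the 6 genes lie on chromosome X. vit-1 (WBGene00006925) spans 7727901 to 7733308 on the plus strand and vit-2 (WBGene00006926) spans 5101032 to 5106173 on the plus strand. vit-3 (WBGene00006927, 3567397 to 3572549) and vit-4 (WBGene00006928, 3558839 to 3563974) are neighbours on the minus strand, 3422 bases apart, and vit-5 (WBGene00006929) spans 3403471 to 3408605 on the plus strand. vit-6 (WBGene00006930) stands alone on chromosome IV, 8261145 to 8266463, plus strand. Each is annotated as protein coding, with 5 listed exon parts in vit-1, vit-2 and vit-6 and 6 in vit-3, vit-4 and vit-5, and a summed exon length of 4872 to 5216 bases. vit-3, vit-4 and vit-5 are close copies of each other, so reads may have been split or lost between them, and their separate values are uncertain. vit-2, vit-3, vit-4 and vit-6 each overlap 1 other annotated gene. Whether the counting used strand is not given in the sources used here, so reads of such a pair cannot be told apart.

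The libraries held 15420762 to 26019499 counts. A gene with no count could thus have a level of up to 0.108 to 0.177 CPM (counts relative to a library size scaled by the trimmed mean of M values), which is 3 counts and covers counting error only. A pair of libraries stood apart in the number of genes with a count, wild type AMsh E30 with 14101 and che-2 AMsh E35 with 15711, against 17555 to 19298 in the other 10. The mutated gene che-2 itself was read at 0 to 3.77 CPM in wild type and 0.281 to 12.5 CPM in mutant libraries, so its transcript does not separate the genotypes. The sort was checked with 5 genes of AMsh glia: ver-1, vap-1, fig-1, T02B11.3 and the reporter's own gene F16F9.3. Their summed level was 365.5 to 3454 CPM in AMsh and 77.05 to 147.8 CPM in non-AMsh libraries. The fitted value was higher in AMsh for 5 of 5 in each genotype. In edgeR at an adjusted p under 0.05, 4 of the 5 passed in each, against 0.437% of all tested genes in wild type and 0.593% in che-2. ver-1 was at 0 in 8 of the 12 libraries. The titles of the E36 libraries, other than wild type non-AMsh, carry the replicate number of E30, so libraries were told apart by code.

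The summed vitellogenin level was highest in both fractions of 1 mutant culture, E35. In the order E30, E35 and E36, the sum was 54.7, 7.25 and 34.2 CPM in wild type AMsh libraries and 28.6, 601 and 71.0 CPM in che-2 AMsh libraries. It was 7.09, 16.8 and 29.1 CPM in wild type non-AMsh and 29.9, 574 and 172.9 CPM in che-2 non-AMsh libraries. In the AMsh fraction the genotypes overlapped, because che-2 E30 lay below wild type E30 and E36. In the non-AMsh fraction they did not overlap, but the highest wild type and the lowest mutant library were almost level. The group values were 32.0 ± 23.8 CPM in wild type AMsh, 233 ± 319 CPM in che-2 AMsh, 17.6 ± 11.01 CPM in wild type non-AMsh and 259 ± 282 CPM in che-2 non-AMsh (SD, n = 3). In both mutant groups the SD exceeded the mean, since E35 stood far above the other 2 libraries. Without that library, the mean of the other 2 was 49.8 CPM in che-2 AMsh and 101.4 CPM in che-2 non-AMsh.

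Even at its highest, vitellogenin RNA was a small part of these libraries. The 6 genes took 161 to 10681 counts, or 0.000644 to 0.0594% of all counts, an 84.7-fold range in CPM from wild type non-AMsh E30 to che-2 AMsh E35. Within the mutant, the E35 culture exceeded the E30 culture 21.02-fold in AMsh and 19.17-fold in non-AMsh cells. Within a code, the mutant AMsh library was 82.8 times its wild type counterpart in E35 and 2.08 times in E36, whereas in E30 wild type was 1.91 times the mutant. In the non-AMsh fraction the mutant was 4.22, 34.2 and 5.95 times wild type in E30, E35 and E36. The genotype ratio thus ran in opposite directions among the codes in AMsh cells and in 1 direction in non-AMsh cells, with a wide range in both.

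**Figure D1:**
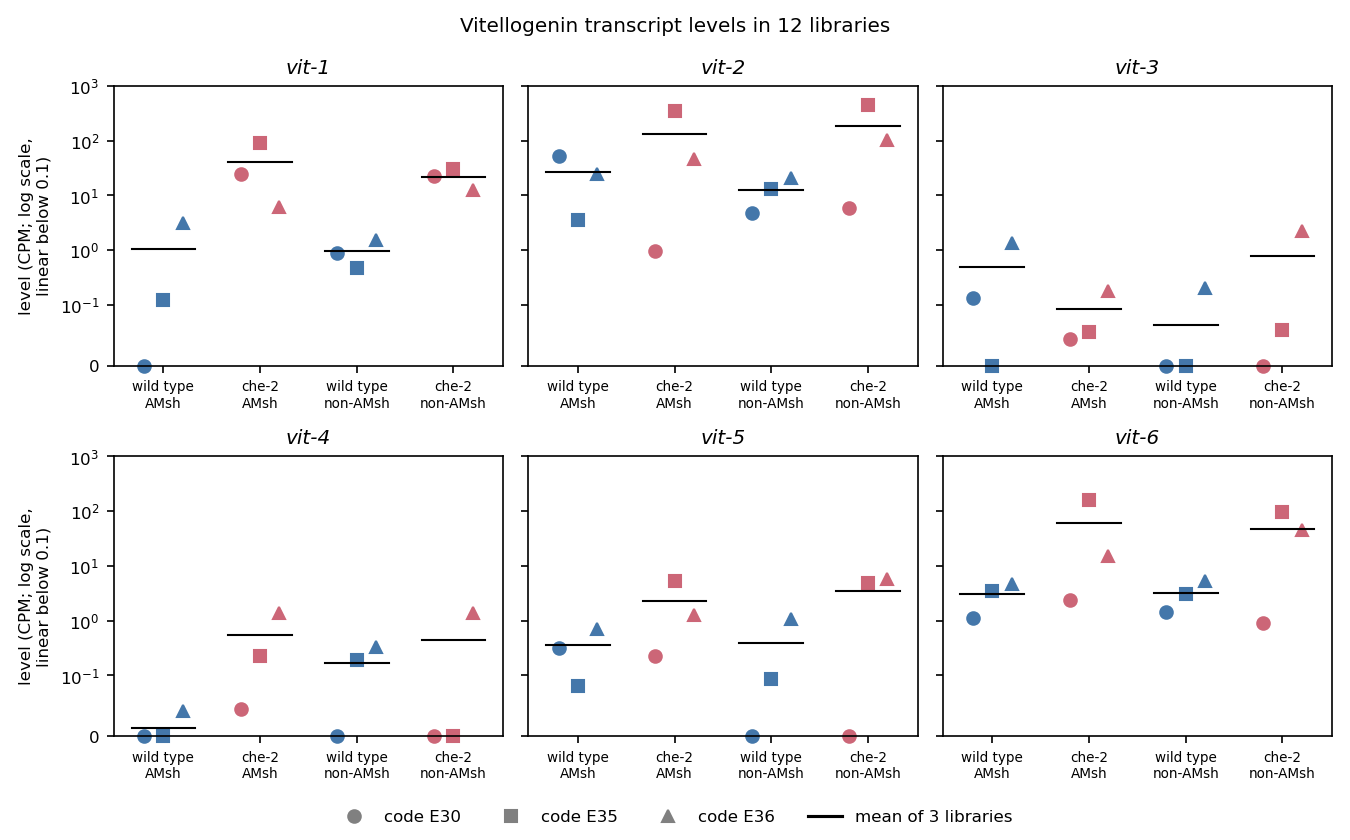
Level of each vitellogenin gene (CPM, log scale that is linear below 0.1) in the 4 groups on the x axis, with 1 point per library shaped by code and a line at the mean of 3 libraries. vit-1 is higher in the 3 mutant than in the 3 wild type libraries of each fraction, and the mutant E35 libraries (squares) hold the highest vit-1, vit-2 and vit-6 levels.

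vit-2, which encodes a large yolk protein, was the most abundant member per exon length in 10 of the 12 libraries. Its level in E30, E35 and E36 was 53.1, 3.54 and 24.3 CPM in wild type AMsh and 0.981, 344 and 46.5 CPM in che-2 AMsh libraries. In the non-AMsh fraction it was 4.76, 12.9 and 20.7 CPM in wild type and 5.86, 444 and 104.8 CPM in che-2 libraries. The genotypes overlapped in both fractions, since the mutant E30 culture had as little vit-2 as wild type, and the mutant AMsh E30 library had the least of all 12. The means were 131 ± 187 against 27.0 ± 24.9 CPM in AMsh (SD, n = 3, log2 fold change 2.27, SE 1.601, 95% interval −1.21 to 5.76, adjusted p = 0.594). In non-AMsh they were 184.8 ± 230 against 12.8 ± 7.98 CPM (log2 fold change 3.85, SE 1.71, 95% interval 0.122 to 7.58, adjusted p = 0.462). Neither difference passed the test. Without the mutant AMsh E35 library the AMsh difference turned to −0.18, so its direction rested on that library. Without the mutant non-AMsh E35 library the non-AMsh difference was 2.09, and without both libraries with few detected genes the AMsh difference was 0.77.

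vit-6 encodes a precursor that is cleaved into smaller yolk proteins, and its level followed the cultures. It was 1.11, 3.502 and 4.62 CPM in wild type AMsh and 2.36, 162 and 15.4 CPM in che-2 AMsh libraries. It was 1.45, 3.06 and 5.21 CPM in wild type non-AMsh and 0.928, 94.9 and 45.9 CPM in che-2 non-AMsh libraries. Mutant E35 and E36 lay above every wild type library in each fraction, and mutant E30 lay within or below the wild type values. The means were 59.8 ± 88.4 against 3.08 ± 1.79 CPM in AMsh (SD, n = 3, log2 fold change 4.27, SE 1.54, 95% interval 0.931 to 7.62, adjusted p = 0.268). In non-AMsh they were 47.3 ± 47.0 against 3.24 ± 1.89 CPM (log2 fold change 3.86, SE 1.51, 95% interval 0.581 to 7.14, adjusted p = 0.372). vit-6 did not pass in either fraction, although both intervals lay above 0. Without mutant AMsh E35 the AMsh value was 1.52, the lowest when any 1 library was left out, and without both libraries with few detected genes it was 1.13.

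vit-1, whose product is another large yolk protein, was the tested member whose genotypes did not overlap. Its level was 0, 0.124 and 3.08 CPM in wild type AMsh and 24.9, 89.2 and 6.21 CPM in che-2 AMsh libraries. It was 0.881, 0.471 and 1.55 CPM in wild type non-AMsh and 23.1, 30 and 12.8 CPM in che-2 non-AMsh libraries. Within each fraction, each of the 3 mutant libraries exceeded each of the 3 wild type libraries, including the mutant E30 libraries in which vit-2 and vit-6 were low. Groups without overlap were also found for 17.0% of all genes in AMsh and 22.2% in non-AMsh. The fractions come from the same cultures, so they do not count as separate replicates. The wild type AMsh E30 library had no vit-1 count, which allows up to 0.134 CPM, and wild type AMsh E35 had 3 counts. The means were 40.1 ± 43.5 against 1.07 ± 1.74 CPM in AMsh (SD, n = 3, log2 fold change 5.22, SE 1.44, 95% interval 2.08 to 8.36, adjusted p = 0.161). In non-AMsh they were 22.0 ± 8.68 against 0.967 ± 0.543 CPM (log2 fold change 4.49, SE 1.40, 95% interval 1.45 to 7.54, adjusted p = 0.241). The AMsh value depended on single libraries. It was 3.85 without mutant AMsh E35 (adjusted p = 0.382) and 3.27 without both libraries with few detected genes (adjusted p = 0.355). Without wild type AMsh E36, which held most of the wild type AMsh counts of vit-1, it was 9.18 and passed (adjusted p = 0.0308, range over the alternatives 0.0014 to 0.494). That value is set against libraries with 0 and 3 counts, so its size was not resolved.

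In the test across all genes (edgeR's quasi-likelihood test with Benjamini-Hochberg adjustment at 0.05), 0 of the 4 tested members passed for the genotype in AMsh, where 0.461% of the 16690 tested genes passed. In non-AMsh 0 of 4 passed, against 0.144% of all genes. At an unadjusted p under 0.05 the members were 2 in AMsh (vit-1 and vit-6) and 3 in non-AMsh (vit-1, vit-2 and vit-6), against 12.8% and 10.3% of all genes. DESeq2 called 2 members higher in the mutant in each fraction, vit-1 and vit-6, with adjusted p of 0.0014 and 0.0226 in AMsh, where it called 5.32% of all genes. In non-AMsh their adjusted p was 0.00943 and 0.0445, and it called 4.98% of all genes. Among the tested members, vit-1 had groups without overlap in each fraction, as had 17.0% of all genes in AMsh and 22.2% in non-AMsh. The 4 fitted values were positive in both fractions, while the median of all genes was 0.119 in AMsh and −0.014 in non-AMsh (log2).

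**Figure D2:**
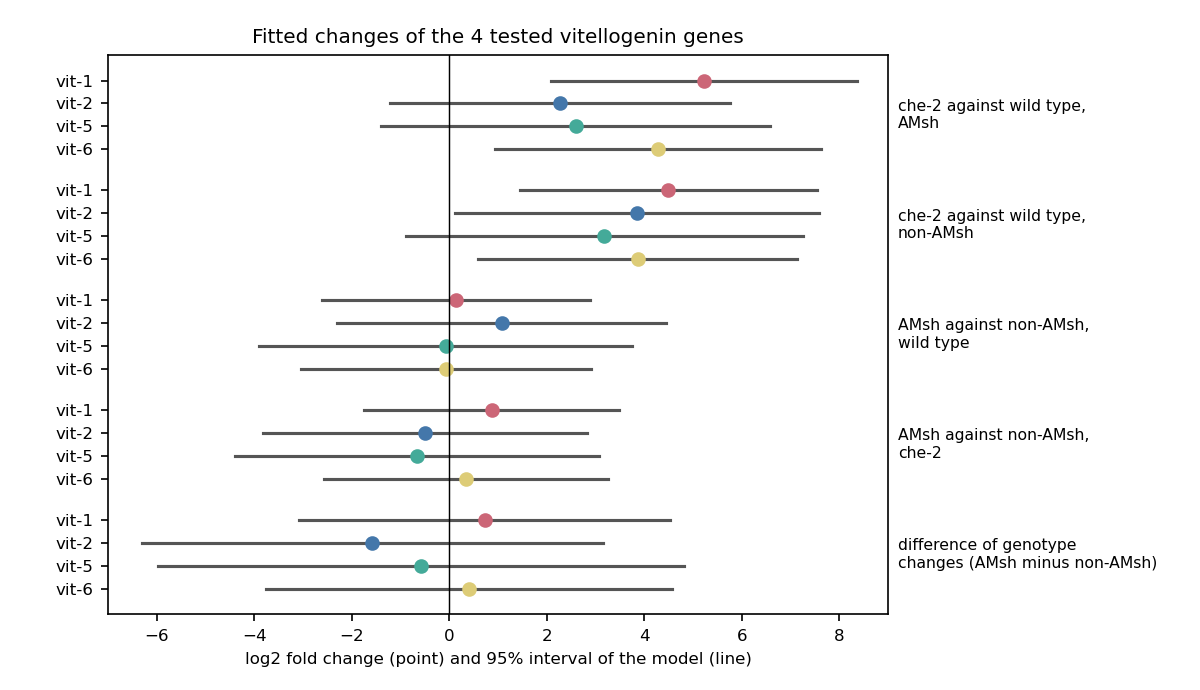
Fitted log2 fold change (points) with the 95% interval of the model (lines) for the 4 tested vitellogenin genes in the 5 comparisons named at the right. The intervals of vit-1 and vit-6 lie above 0 for the genotype in both fractions, and those of the comparisons between fractions all include 0.

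The members did not keep a fixed proportion. vit-1 made up 87.2% (95% Clopper-Pearson interval 84.4 to 89.7) of the vitellogenin counts of mutant AMsh E30 and 77.3% (73.5 to 80.9) of those of mutant non-AMsh E30. In the other 10 libraries its share was 0 to 14.8%. Set against vit-2 alone, vit-1 took 96.2% (94.3 to 97.6) and 79.8% (76.0 to 83.2) of the joint counts in these E30 libraries. The summed level of the mutant E30 culture lay within the wild type range in AMsh. In non-AMsh it lay just above the highest wild type library (29.9 against 29.1 CPM). Most of the sum came from vit-1 in both fractions of that culture.

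At the opposite end, vit-2 held 97.1% (96.1 to 98.0) of the vitellogenin counts in wild type AMsh E30, 1 of the 2 libraries with few detected genes. The ratio of vit-2 to vit-6 was 47.7 in that library and 0.415 in mutant AMsh E30, against 1.01 to 6.31 in the other 10. The ratio of vit-1 to vit-6 was 10.5 and 24.9 in the mutant E30 libraries and at most 0.667 elsewhere. Per kilobase of exon, vit-2 was above vit-6 and vit-6 above vit-1 in 10 of the 12 libraries, and vit-1 led in 2, both of mutant E30. In che-2 non-AMsh, the levels per kilobase were 37.4 ± 46.4 CPM for vit-2, 9.31 ± 9.26 CPM for vit-6 and 4.21 ± 1.66 CPM for vit-1 (SD, n = 3). These means lie within the spread between libraries, but within a library vit-2 was above vit-6 in 3 of 3, with 6.31, 4.67 and 2.28 times its counts in E30, E35 and E36. Intervals on shares cover counting error only, since amplified reads are not independent molecules.

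**Figure D3:**
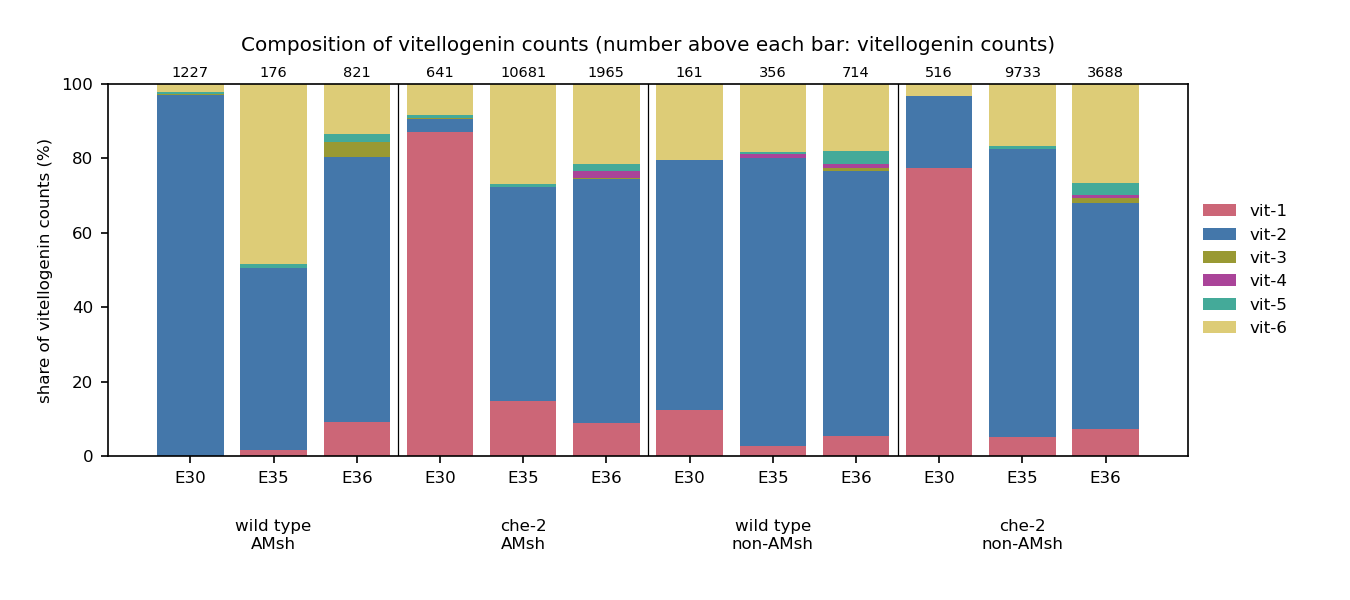
Share of each vitellogenin gene in the vitellogenin counts of each library (stacked bars, percent), with the number of vitellogenin counts above each bar. vit-1 takes most counts in the mutant E30 libraries of both fractions, and vit-2 takes nearly all in wild type AMsh E30.

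The close copies vit-3, vit-4 and vit-5 were rare and took 0 to 6.21% of the vitellogenin counts. vit-5 was at 0.312, 0.0824 and 0.707 CPM in wild type AMsh and 0.223, 5.23 and 1.30 CPM in che-2 AMsh libraries. In non-AMsh it was at 0, 0.0942 and 1.06 CPM in wild type and 0, 4.83 and 5.81 CPM in che-2 libraries. Mutant E30 did not exceed the highest wild type library of its fraction, and the genotypes overlapped in both fractions. Its log2 fold change was 2.59 in AMsh (SE 1.83, adjusted p = 0.595) and 3.18 in non-AMsh (SE 1.87, adjusted p = 0.631), and neither passed. It was 1.05 in AMsh without mutant E35, and 6.09 in non-AMsh without wild type E36, the wild type non-AMsh library with most of the vit-5 counts.

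vit-3 and vit-4 did not pass the filter on low counts. vit-3 reached 48 counts at most and had none in 4 libraries, and vit-4 reached 38 and had none in 5. Their highest levels were 2.25 and 1.37 CPM, both in mutant E36 libraries. vit-4 was higher in the mutant AMsh libraries without overlap, but the nearest values were single counts (0.0446 against 0.0416 CPM), so the order was not resolved at this depth. With vit-3, vit-4 and vit-5 counted as 1 feature, the log2 fold change was 1.70 in AMsh (SE 1.79, adjusted p = 0.748) and 2.92 in non-AMsh (SE 1.88, adjusted p = 0.675).

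The comparison of fractions asks whether vitellogenin transcripts went with the glia or with the other cells of the same animals. In wild type, the AMsh sum was 7.71, 0.432 and 1.18 times the non-AMsh sum in E30, E35 and E36. In the mutant it was 0.955, 1.05 and 0.41 times. Neither fraction was higher across the 3 cultures of a genotype. The 7.71-fold ratio in wild type E30 came from vit-2, which was 11.2 times higher in AMsh there, while vit-6 was 0.766 times its non-AMsh level. In mutant E30 the reverse held, with vit-2 at 0.167 and vit-6 at 2.55 times the non-AMsh level.

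**Figure D4:**
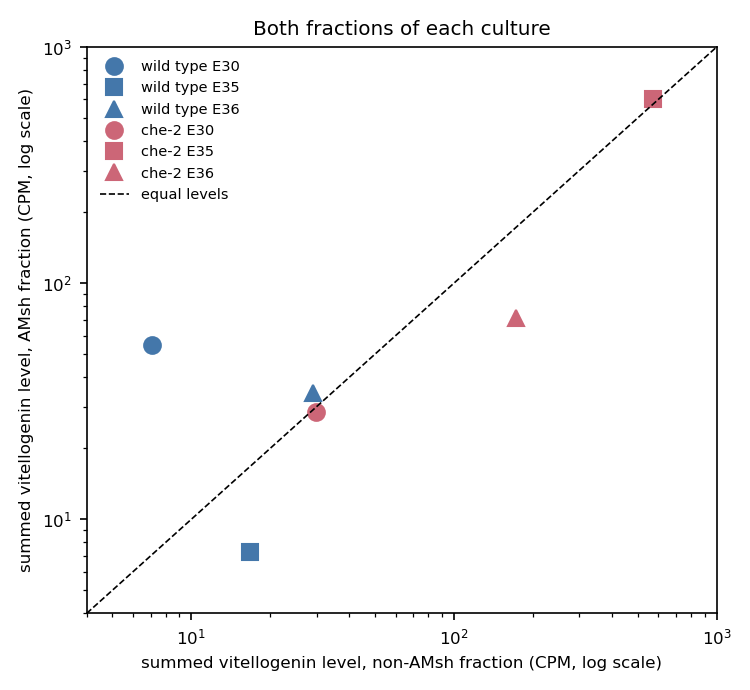
Summed vitellogenin level (CPM, log scales) in the AMsh fraction against the non-AMsh fraction, with 1 point per culture and a dashed line at equal levels. Mutant E35 lies highest in both fractions (601 and 574 CPM), and wild type E30 lies farthest above the line.

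Of the 4 tested members, 0 differed between fractions in wild type or in che-2 in edgeR, where 0.437% and 0.593% of all genes did. In DESeq2 the count was 0 as well, against 1.06% and 1.1%, and 0 had an unadjusted p under 0.05 in edgeR, against 3.81% and 2.98%. The fitted AMsh minus non-AMsh values in wild type were 0.14 for vit-1 (SE 1.26), 1.08 for vit-2 (SE 1.55), −0.07 for vit-5 (SE 1.76) and −0.07 for vit-6 (SE 1.37). In che-2 they were 0.87 (SE 1.20), −0.50 (SE 1.53), −0.66 (SE 1.72) and 0.34 (SE 1.34). Every adjusted p was 1.0. The intervals were wide, −2.30 to 4.45 for vit-2 and −3.05 to 2.90 for vit-6 in wild type, so sizeable differences in either direction were not detectable. With the culture as a block the wild type values turned to −1.21 for vit-1 and 0.77 for vit-5, with 0 members called. The test of whether the genotype change differed between fractions called 0 of 4 members in edgeR (0.0% of all genes) and 0 in DESeq2 (0.0241%), and 0 had an unadjusted p under 0.05 in edgeR (1.68%). The difference of changes was 0.73 for vit-1 (SE 1.75), −1.58 for vit-2 (SE 2.18), −0.59 for vit-5 (SE 2.48) and 0.41 for vit-6 (SE 1.91).

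Vitellogenin genes are transcribed in the intestine, so 14 intestinal genes were read beside them. Their summed level was 4516 to 9209 CPM in AMsh and 5190 to 11350 CPM in non-AMsh libraries, and each of the 14 had counts in every library. The AMsh fraction thus carried intestinal transcripts at about the level of the other cells. Between fractions 0 of the 14 passed in edgeR in wild type or in che-2, against 0.437% and 0.593% of all genes. At an unadjusted p under 0.05 the number was also 0, against 3.81% and 2.98%, so a list of 14 would show few calls at these shares. The fitted value was above 0 for 1 of 14 in wild type (median −0.174) and 4 of 14 in che-2 (median −0.071). Most of the 14 thus leaned slightly lower in AMsh. In these bulk samples fewer intestinal cells and less RNA per cell cannot be told apart. The intestinal sum was lowest in mutant E35 and E36 (4516 to 5514 CPM) and 8299 to 11350 CPM in the other 8 libraries. The proteases asp-1, cpr-1 and cpr-6 made up 84.0 to 93.6% of it. The other 11 genes summed to 721.1 and 750.5 CPM in the AMsh and non-AMsh libraries of mutant E35, 527 and 611 CPM in mutant E36, and 534 to 1168 CPM in the other 8 libraries, so neither sum was highest where vitellogenin was highest. Per 100 CPM of intestinal genes, vitellogenin stood at 13.3 and 11.1 CPM in the AMsh and non-AMsh libraries of mutant E35. It stood at 1.52 and 3.14 CPM in mutant E36, 0.321 and 0.339 CPM in mutant E30, and 0.08 to 0.598 CPM in wild type. Per 100 CPM of the 11 genes without the proteases, it stood at 83.3 and 76.4 CPM in mutant E35, 13.5 and 28.3 CPM in mutant E36, 3.29 and 3.36 CPM in mutant E30, and 0.607 to 4.85 CPM in wild type. For the genotype, 0 of 14 intestinal genes passed in edgeR in either fraction (median log2 fold change −0.124 in AMsh and −0.159 in non-AMsh), with 2 and 3 at an unadjusted p under 0.05 (12.8% and 10.3% of all genes). In AMsh 1 of these was higher and 1 lower. In non-AMsh the 3 were lower, a larger share of 14 than the 10.3% of all genes, but on few genes. DESeq2 called 1 of 14 in each fraction, asp-1, as lower. That was near the 5.32% and 4.98% of all genes that it called. ges-1, the gut esterase, was at 34.1 ± 17.6 CPM in mutant and 22.5 ± 13.8 CPM in wild type AMsh libraries (SD, n = 3, adjusted p = 0.690). Among the proteases, which had the highest levels of the list, asp-1 was at 1932 ± 413 against 3807 ± 381 CPM (adjusted p = 0.265).

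Of 13 genes known to act upstream of the vit genes, 0 passed for the genotype in AMsh (0.461% of all genes passed) or in non-AMsh (0.144%), and 2 and 1 were lower at an unadjusted p under 0.05 (12.8% and 10.3% of all genes). DESeq2 called 1 in AMsh (sma-3, a SMAD of body size signalling, lower, 5.32% of all genes) and 0 in non-AMsh. The median log2 fold change was −0.203 in AMsh and −0.318 in non-AMsh. In mutant AMsh libraries elt-2, the intestinal GATA factor, stood at 14.3 ± 4.01 CPM and in wild type AMsh at 8.44 ± 4.68 CPM (SD, n = 3, a fitted log2 difference of 0.76, SE 0.52, adjusted p = 0.587). unc-62 and ceh-60 encode the MEIS and PBX homeodomain partners that activate vit genes. unc-62 was at 40.1 ± 14.9 against 70.8 ± 23.1 CPM in AMsh (log2 fold change −0.82, SE 0.36, adjusted p = 0.368) and in non-AMsh at 50.02 ± 12.7 against 86.3 ± 10.5 CPM (−0.79, SE 0.36, adjusted p = 0.484). ceh-60 had a low level, at 1.45 ± 0.159 against 1.26 ± 1.496 CPM in AMsh. mab-3, the male repressor of yolk genes, was at 9.02 ± 6.06 against 6.61 ± 5.00 CPM (adjusted p = 0.877), and the LDL receptor relative lrp-2 at 64.5 ± 24.4 against 74.2 ± 13.1 CPM (adjusted p = 0.893). lin-29, the zinc finger factor of the larva to adult switch, was at 8.54 ± 2.67 against 7.08 ± 5.66 CPM (adjusted p = 0.917). The insulin pathway factor daf-16 was at 42.2 ± 14.2 against 39.7 ± 16.4 CPM (adjusted p = 0.952).

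Of 11 genes of yolk assembly and uptake, 0 passed for the genotype in either fraction, with a median log2 fold change of −0.0719 in AMsh and −0.257 in non-AMsh. In AMsh 1 (rab-35, lower) and in non-AMsh 0 had an unadjusted p under 0.05, and DESeq2 called 0 in each, against 12.8% and 10.3% of all genes at that p and 5.32% and 4.98% by DESeq2. rme-2, the oocyte receptor for yolk, was at 2.36, 55.6 and 37.9 CPM in wild type AMsh and 51.3, 157 and 79.7 CPM in che-2 AMsh libraries. In non-AMsh it was at 10.2, 63.6 and 62.05 CPM in wild type and 38.1, 215 and 85.9 CPM in che-2. As with vit-2 and vit-6, mutant E35 was highest in each fraction, and the genotypes overlapped. The log2 fold change was 1.59 in AMsh (SE 0.98, adjusted p = 0.534) and 1.32 in non-AMsh (SE 0.97, adjusted p = 0.735). dsc-4, which encodes the large subunit of the microsomal triglyceride transfer protein that loads lipid onto yolk, was at 82.1 ± 72.3 against 61.0 ± 24.9 CPM in AMsh (adjusted p = 0.807). Its highest level, 165.5 CPM, was in mutant AMsh E30, where vit-2 was lowest. The most abundant others were rme-1, a recycling factor, at 141 ± 64.7 against 97.5 ± 13.8 CPM (adjusted p = 0.582) and the clathrin heavy chain gene chc-1 at 120.4 ± 44.5 against 126.6 ± 47.7 CPM (adjusted p = 0.960).

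The adult cuticle gene col-19 and genes of oocytes and sperm were highest, in sum or alone, in the mutant E35 culture in each fraction, where vitellogenin was highest, and their part in it was not tested. col-19, a collagen gene of the adult cuticle, was at 159, 72.0 and 174 CPM in wild type AMsh and 19.4, 3417 and 369.7 CPM in che-2 AMsh libraries. In non-AMsh it was at 22.4, 92.3 and 288 CPM in wild type and 23.4, 2604 and 697 CPM in che-2 libraries. The mutant E35 culture was thus highest and the mutant E30 culture among the lowest in col-19, as in vit-2. The 4 listed genes of the adult cuticle were split. col-7 went with col-19, at 0.446, 175 and 29.7 CPM in che-2 AMsh libraries. bli-1 and bli-2, also cuticle collagen genes of that list, had the opposite order in the mutant. In che-2 AMsh libraries bli-1 was at 831, 35.7 and 122.4 CPM and bli-2 at 1635, 102.3 and 455 CPM. The summed level of the 4 cuticle genes (col-19, col-7, bli-1 and bli-2) was 1598 to 1926 CPM in wild type AMsh, 977 to 3730 CPM in che-2 AMsh, 1131 to 1786 CPM in wild type non-AMsh and 1375 to 2936 CPM in che-2 non-AMsh. Of the 4, 0 passed for the genotype in either fraction in edgeR or DESeq2, with 0 at an unadjusted p under 0.05, and col-19 had a log2 fold change of 3.23 in AMsh (SE 1.63, adjusted p = 0.438) and 3.04 in non-AMsh (SE 1.62, adjusted p = 0.575).

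For 15 oocyte and eggshell genes, the summed level was 119.8 to 185 CPM in wild type AMsh, 237 to 1592 CPM in che-2 AMsh, 88.8 to 297 CPM in wild type non-AMsh and 250.3 to 1717 CPM in che-2 non-AMsh. In the mutant the order of codes was that of the vitellogenin sum, with E35 highest and E30 lowest in each fraction. Most of the sum in mutant E35 came from perm-2 and perm-4, at 464 and 709 CPM in AMsh and 521 and 752 CPM in non-AMsh. In wild type AMsh the order of the 15-gene sum was not that of vitellogenin. There E30 had the most vitellogenin and the lowest sum of the 15 genes, and oma-2, puf-5, puf-11, egg-2 and egg-3 were at 0. Each of the 15 had a positive fitted value in both fractions (median 2.0 in AMsh and 1.55 in non-AMsh, against 0.119 and −0.014 for all genes), but 0 passed in edgeR, with 4 and 5 at an unadjusted p under 0.05 (12.8% and 10.3% of all genes). DESeq2 called 1 in AMsh (perm-2), where it called 5.32% of all genes, and 2 in non-AMsh (perm-2 and perm-4), where it called 4.98%. perm-4 and perm-2, genes of the eggshell permeability barrier, had the highest levels, perm-4 with 305 ± 351 against 45.6 ± 16.6 CPM (a fitted log2 difference of 2.74, SE 0.97, adjusted p = 0.257) and perm-2 with 199 ± 231 against 21.6 ± 2.97 CPM (adjusted p = 0.241) in AMsh. cpg-2, a chondroitin proteoglycan gene of the eggshell, was at 60.6 ± 32.9 against 15.9 ± 9.43 CPM (adjusted p = 0.266).

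For 11 sperm genes, the summed level was 62.6 to 122.5 CPM in wild type AMsh, 285 to 502 CPM in che-2 AMsh, 75.0 to 158 CPM in wild type non-AMsh and 234 to 646 CPM in che-2 non-AMsh, without overlap between genotypes. Here mutant E30 stood above wild type too, as it did for vit-1 and not for vit-2 or vit-6. Each of the 11 was positive in both fractions (median 2.11 and 1.61), with 7 and 6 at an unadjusted p under 0.05 (12.8% and 10.3% of all genes). 1 of 11 passed in AMsh, where 0.162% of all genes were called higher, and 0 of 11 in non-AMsh. It was comp-1, a kinase family gene needed for sperm competitiveness, which in AMsh averaged 9.75 ± 3.65 CPM for the mutant and 0.332 ± 0.256 CPM for wild type (SD, n = 3, a fitted log2 difference of 4.85, SE 0.91, adjusted p = 0.0405). The wild type AMsh levels of comp-1 were low, at 0.0446, 0.536 and 0.416 CPM in E30, E35 and E36. In wild type non-AMsh they were 4.10, 0.895 and 3.54 CPM. DESeq2 called comp-1 lower in AMsh than in non-AMsh in wild type, where it called 1.06% of all genes. Without che-2 AMsh E36, 0 of 17191 tested genes passed in AMsh, so the call of comp-1 was not kept. DESeq2 called 4 of 11 in each fraction, spe-11, comp-1 and gsp-3 in both, spe-6 in AMsh and gsp-4 in non-AMsh, against 5.32% and 4.98% of all genes. gsp-3, a sperm phosphatase gene, was the most abundant of the list, at 152 ± 49.9 against 38.4 ± 23.1 CPM in AMsh (adjusted p = 0.211). spe-9 was at 0 in wild type AMsh E30 and spe-42 in che-2 AMsh E35.

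Genes of the hypodermis were lowest in sum, though not each alone, where vitellogenin was highest. The summed level of 6 (dpy-7, dpy-13, rol-6, col-10, sqt-3 and che-14) was 1810 and 4357 CPM in the AMsh and non-AMsh libraries of mutant E35, against 6378 to 16520 CPM in the other 10 libraries, and each of the 6 had counts in every library. dpy-7, rol-6 and sqt-3 were each lowest in mutant E35 in both fractions. In non-AMsh, dpy-13 was at 2461 CPM in mutant E35 and 1817 CPM in wild type E30. col-10 was at 149.7 CPM in mutant non-AMsh E35 and 118.3 CPM in mutant non-AMsh E30. che-14 was not lowest in mutant E35 in either fraction. dpy-7, a collagen gene of the larval cuticle, was at 318, 304 and 316 CPM in wild type AMsh and 314, 27.7 and 74.7 CPM in che-2 AMsh libraries. In non-AMsh it was at 413, 273 and 353 CPM in wild type and 294, 19.9 and 62.2 CPM in che-2 libraries. Its r with the summed vitellogenin level, in log2(CPM + 1) over the 12 libraries, was −0.917. That was the most negative r of the 6, which reached −0.412 for dpy-13. The genotype difference of dpy-7 did not pass (adjusted p = 0.627 in AMsh and 0.656 in non-AMsh). The summed level of 8 heterochronic genes, which time larval stages, was also lowest in mutant E35, at 27.6 and 44.3 CPM against 65.5 to 149.8 CPM elsewhere. Much of that gap lay in lin-42, at 9.11 and 15.7 CPM in the AMsh and non-AMsh libraries of mutant E35 and 38.7 to 115.4 CPM elsewhere. Not each gene was lowest there. lin-29 was at 11.4 CPM in mutant AMsh E35, above 8.07 and 6.14 CPM in mutant AMsh E30 and E36. The part of these genes in the vitellogenin level was not tested.

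For 7 germ line genes the median log2 fold change was 0.685 in AMsh and 0.884 in non-AMsh, with 0 called in edgeR, 2 and 3 higher at an unadjusted p under 0.05, and 1 called by DESeq2 (pgl-1, a P granule gene, in non-AMsh). For the 8 heterochronic genes it was −0.467 and −0.668, with 0 called in edgeR, 2 and 1 lower at an unadjusted p under 0.05, and 1 called by DESeq2 (lin-46, lower in AMsh). lin-41, which holds back the adult program, was at 4.39 ± 1.64 against 11.2 ± 6.10 CPM in AMsh (adjusted p = 0.368) and at 6.38 ± 3.26 against 16.9 ± 6.51 CPM in non-AMsh (adjusted p = 0.425). lin-42, a period homolog and the most abundant of the list, was at 72.9 ± 56.1 against 84.5 ± 30.3 CPM in AMsh (adjusted p = 0.941). Among genes of hypodermis, body muscle, pharynx muscle, neurons and coelomocytes, 0 of 23 passed for the genotype in either fraction in edgeR, 4 and 1 had an unadjusted p under 0.05, and DESeq2 called 1 (cup-4, lower in AMsh). For these small lists, as for the germ line and heterochronic genes, the shares over all genes were 12.8% and 10.3% at that p and 5.32% and 4.98% by DESeq2. The median log2 fold change was −1.27 in AMsh and −1.62 in non-AMsh for the 2 coelomocyte genes (cup-4 and unc-122), and between −0.625 and 0.429 for the other 4 lists.

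**Figure D5:**
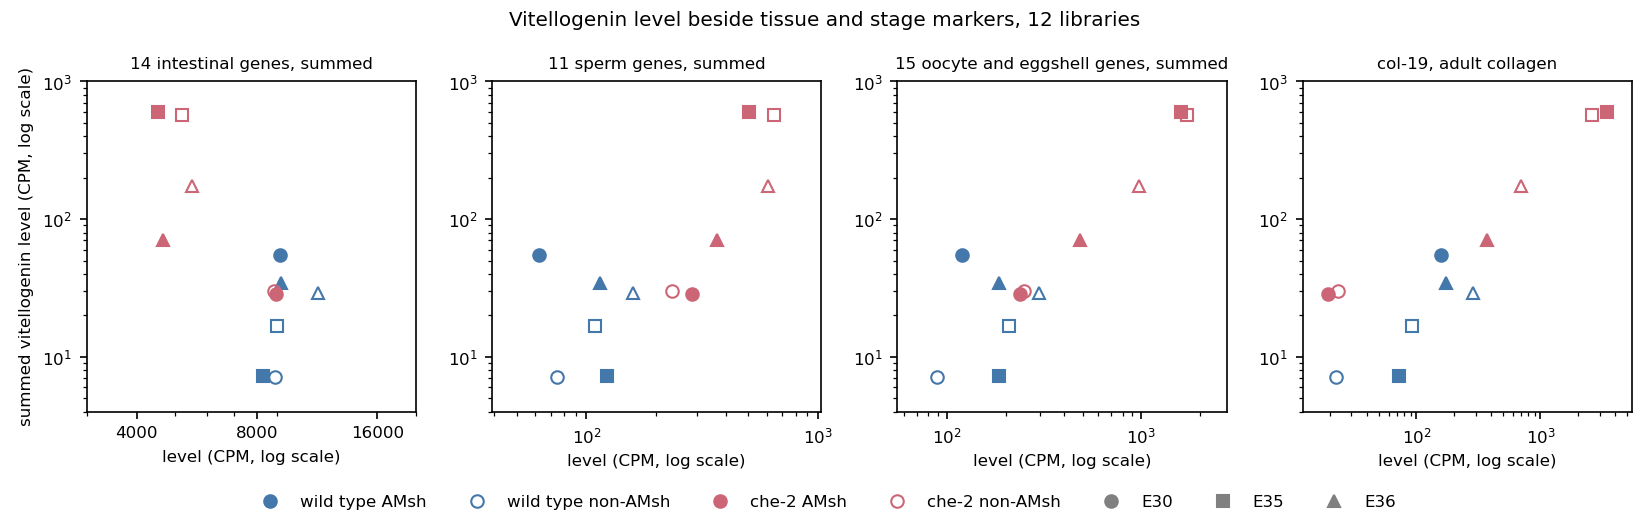
Summed vitellogenin level (y axis, CPM) against the summed level of 14 intestinal, 11 sperm and 15 oocyte and eggshell genes and against col-19 (x axes, CPM, log scales), with 1 point per library, filled for AMsh and open for non-AMsh. The mutant E35 libraries lie highest on the y axis with the highest oocyte, eggshell and col-19 levels, and all 4 mutant E35 and E36 libraries lie at the low end of the intestinal levels, which are mostly those of 3 proteases.

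The members themselves varied together to different degrees across the 12 libraries, as described by Pearson's r of log2(CPM + 1). r was 0.956 between vit-5 and vit-6, 0.873 between vit-2 and vit-5 and 0.846 between vit-2 and vit-6. It was 0.652 between vit-1 and vit-6 and 0.416 between vit-1 and vit-2. The libraries come from 6 cultures with 2 fractions each, so the points are not independent, and reads shared between close copies would also raise r.

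Of 10398 genes with a mean of at least 5 CPM, perm-4 had the highest Pearson's r with the summed vitellogenin level. It was 0.973 over the 12 libraries (0.955 within the 6 AMsh and 0.994 within the 6 non-AMsh libraries). The perm-4 level in E30, E35 and E36 was 77.3, 709 and 129.6 CPM in che-2 AMsh and 60.8, 752 and 338 CPM in che-2 non-AMsh libraries. In wild type it was at 62.7, 29.5 and 44.5 CPM in AMsh and 20.3, 46.6 and 85.7 CPM in non-AMsh libraries. Within each fraction it thus followed the vitellogenin order of the codes in both genotypes, wild type AMsh E30 included. Between fractions it did not, since wild type non-AMsh E36 had more perm-4 than wild type AMsh E30 but less vitellogenin (29.1 against 54.7 CPM). Next came lab-1 (r = 0.955), a gene of meiotic chromosome cohesion, then K04G2.4 (0.952), sss-1 (0.9504), cylc-1 (0.947), try-14 (0.945), C06A6.4 (0.943), K09E4.1 (0.943), T23F6.3 (0.943) and T09F5.10 (0.941). Of these 10 genes, 0 passed for the genotype in edgeR in either fraction (adjusted p from 0.136 to 0.694). The order depends on the measure, since 3 of the 10 were among the 10 highest by Spearman's rho. perm-4 was not among them, with a rho of 0.853 against 0.930 for the tenth highest gene.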

How the data were processed

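RNA was sequenced from 12 libraries of sorted cells, amplified from 0.4 to 5 ng of total RNA with a SMARTer kit, per the labels' protocols. Reads were processed with CASAVA 1.8.2, FastQC, STAR 2.3 and featureCounts on WBcel235, per the submitters' processing notes; the sources used here do not give the strand setting, annotation release or multi-mapping rule. The deposited values are whole-number read counts per gene, with no normalization by the authors, and the deposited exon length of each gene in bases served for levels per kilobase. Of 46726 identifiers, 43623 had a symbol in the reference gene names.

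Here, counts were scaled by TMM, genes were kept with filterByExpr (16690 genes, 4 of 6 members), and edgeR 4.0.16 (R 4.3.3, limma 3.58.1) fitted 1 quasi-likelihood model to all 4 groups, with 8 residual degrees of freedom and a biological coefficient of variation of 0.732. p values are two-sided and were Benjamini-Hochberg adjusted over all tested genes in each comparison, at 0.05. The 95% intervals of fold changes are those of the model, and those of shares are exact Clopper-Pearson intervals. DESeq2 1.42.0 was an alternative. Figures and summaries used Python 3.11.15, pandas 2.3.3, scipy 1.17.1 and matplotlib 3.10.9. The fit was tested on simulated data. Other alternatives were RLE and upper-quartile scaling, no filter, leaving out each library, fits of the compared groups alone, fits without the 2 libraries with few detected genes, and vit-3, vit-4 and vit-5 summed. Fits without code E30 and without the che-2 E35 culture were chosen after seeing the data.

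Both fractions of a genotype and code were taken as 1 culture. After group means were removed, their deviations correlated across genes at 0.203 to 0.273 for wild type cultures and at 0.159 to 0.503 for mutant cultures, more than with any other culture of the genotype, so the codes pair the fractions of a genotype. The reported comparisons of fractions come from the model without that pairing, and the culture as a block was an alternative. The labels do not say whether cultures with different codes were grown separately, so p values measure the spread between these libraries, which may be technical. The members and gene lists were chosen with earlier results of these data known. Named were all 6 members, the 10 genes most like their sum in r of log2(CPM + 1) with a mean of at least 5 CPM, called list members (otherwise up to 3 by level) and rme-2, dsc-4, lrp-2, lin-29, mab-3, ceh-60, unc-62, elt-2, col-19 and ges-1. col-7, bli-1, bli-2, lin-41, rab-35, dpy-7 and the other hypodermis genes, unc-122 and the genes named for a DESeq2 call were chosen after their values were seen.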

Additional observations from a re-analysis of the deposited data

How the results depend on the processing

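Of 438 fitted values of members under the alternatives, 389 kept their direction and their side of the threshold, 6 passed where they had not, and 43 turned direction (3 of 174 for the genotype, 30 of 181 between fractions and 10 of 83 for the difference of changes). The number of members called for the genotype was 0, and 2 by DESeq2 in AMsh and 2 in non-AMsh; without the 2 libraries with few detected genes it was 1 in non-AMsh (vit-1, 4.49, adjusted p = 0.0493). With 1 library left out it was 0 to 1 in AMsh. The number was 0 in the comparisons of fractions and the difference of changes under the alternatives run, the replicate block included. The culture as a replicate block changed no call; it turned vit-1 to −1.21 and vit-5 to 0.77 in wild type fractions and vit-5 to 0.037 in che-2 fractions. The replicate code as a block turned vit-2 to −0.24 in the AMsh genotype comparison, and vit-1 to −0.27 and vit-5 to 1.58 in wild type fractions. Codes correlated between genotypes at 0.0148, −0.00127 and 0.0395 in AMsh and 0.187, 0.0769 and 0.201 in non-AMsh, and in non-AMsh each library correlated best with its own code, a hint from the data and not the design.

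Without the che-2 E35 culture, vit-2 was −0.30 for the genotype in AMsh; vit-5 was 0.0052 in wild type fractions, vit-1 −0.23 and vit-6 −1.46 in che-2 fractions, and the difference of changes −0.38 for vit-1 and −1.42 for vit-6. Without the 2 libraries with few detected genes, vit-5 was 0.025 and vit-6 0.32 in wild type fractions, vit-1 −0.50 and vit-6 −2.41 in che-2 fractions, and the difference of changes −1.22 and −2.73. Without code E30, vit-2 was −0.27 in wild type fractions. vit-5 there was 0.023 with RLE scaling and 0.030 with DESeq2. The cause of these turns was not tested. Leaving out 1 library at a time gave −0.18 to 3.23 for vit-2 in the AMsh genotype comparison. In wild type fractions it gave −3.82 to 0.72 for vit-1, −0.96 to 2.84 for vit-5 and −0.49 to 0.45 for vit-6. In che-2 fractions it gave −0.50 to 1.30 for vit-1, −2.96 to 1.15 for vit-2 and −2.41 to 1.26 for vit-6. For the difference of changes it gave −0.64 to 4.69 for vit-1, −4.03 to 0.040 for vit-2, −3.50 to 0.30 for vit-5 and −2.34 to 1.30 for vit-6. Where this left a group with fewer libraries, they were assumed to vary like the other groups. Of the 10 genes of most similar pattern, 9 were shared with a pseudocount of 0.1 and 3 with Spearman's rho. Counts under 100 in many libraries limit the precision for vit-3, vit-4 and vit-5. The same limit held for vit-1 in wild type libraries (0 to 74 counts) and for vit-6 in the E30 and wild type E35 libraries (16 to 85 counts). For vit-2 it held in wild type AMsh E35 (86 counts) and che-2 AMsh E30 (22 counts).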
